A study of Mus musculus with 4 samples.

Results

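The genes described here are 6 receptor genes of the colony-stimulating factor (CSF) families, *Csf1r*, *Csf2ra*, *Csf2rb*, *Csf2rb2*, *Csf3r* and *Flt3*, and the genes of 2 growth factors, *Csf1* and *Igf1*. They were chosen by name, and all 8 were present among the 18364 genes of the expression table. The cells were LPMs, the large macrophages that reside in the peritoneal cavity, from 8-week-old C57BL/6 mice. The comparison asks how the transcriptome of LPMs differs when the nuclear receptor RXRα is lost. WT libraries (n = 2) are labelled wild type and, in the study, came from *Rxra* fl/fl mice without Cre. Rxra-KO libraries (n = 2) are labelled RXRa-/- and came from LysM-Cre *Rxra* fl/fl mice, in which Cre is expressed from the *Lyz2* locus and therefore acts in myeloid cells rather than in macrophages alone. LPMs were sorted as F4/80+, CD102+ cells without MHC class II, so *Adgre1* (F4/80) and *Icam2* (CD102) helped to choose the cells. The study's flow cytometry gate for peritoneal macrophages also names CD115, the protein product of *Csf1r*. Whether CD115 was used to sort the cells of these libraries is not given, so a part of the sort in the abundance of *Csf1r* is not known. Whether a library came from 1 mouse or from pooled mice is not given in the sources used here. The limma p-values refer only to spread between these libraries, most of it estimated over many genes rather than from each gene itself.

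CSF1R is the receptor tyrosine kinase for CSF1 and IL-34 and carries the main survival and growth signal of tissue macrophages. GM-CSF, IL-3 and IL-5 act through ligand-specific alpha chains that pair with a shared beta chain, and these receptors signal through JAK2 and STAT5. G-CSF acts through CSF3R, best known from neutrophils, and FLT3 ligand acts through FLT3, best known from progenitors and dendritic cells. IGF1 is a growth factor that macrophages can secrete and that signals through its own receptor tyrosine kinase.

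The reads recovered from the deposited values summed to between 629030 and 1047021 per library over all genes, which is shallow for genes of low level. The number of reads sequenced is not given in the sources used here. Values are normalised read counts, in which 1 read is worth between 0.993 and 1.51 and which include a fixed part of a read added to every gene, so a gene with 0 reads has a value above 0. A gene was taken to be at the floor of detection in a group where neither library had more than 3 reads of it, and floors and counting intervals cover counting error only. No fall of *Rxra* itself was seen in the libraries labelled Rxra-KO, where it had 33 and 77 reads, against 20 and 28 reads in WT. The Rxra-KO libraries had 50.4 and 77.0 normalised read counts of it, above both WT libraries. The log2 fold change was 0.99 ± 0.36 (SE), with a limma adjusted p of 0.183. Reads over the whole gene were counted, including any outside the deleted part, so the value does not check the deletion, and all directions below are those of the libraries as labelled.

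None of the 8 genes passed the threshold, an adjusted p under 0.05 with a log2 fold change of at least 0.6 in either direction, by limma over all genes. The counts were likewise 0 of 8 by edgeR and 0 of 8 by DESeq2, and 1 gene, *Csf2rb*, had an unadjusted limma p under 0.05, while none did by edgeR or DESeq2. Across the table, 421 of 18364 genes were called, or 2.29%, with 1.32% called higher and 0.969% called lower. Among genes with a mean of at least 100 reads, which include *Csf1r*, *Csf3r* and *Igf1*, 193 of 1405 were called, or 13.7%. The estimate was higher in Rxra-KO for 3 of the 8 genes, *Flt3*, *Igf1* and *Csf1r*, and lower for 5. Values of the groups did not overlap for 3 of the 8 (*Csf1r*, *Csf2rb* and *Flt3*), or 37.5%, against 38.1% of all genes tested. The median log2 fold change of the 8 was −0.23, against 0.02 over all genes. All fold changes are Rxra-KO minus WT, taken as differences of log2(value + 1), so that those of low genes are understated, and bulk RNA cannot tell fewer cells of a type from less RNA per cell.

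**Figure D1:**
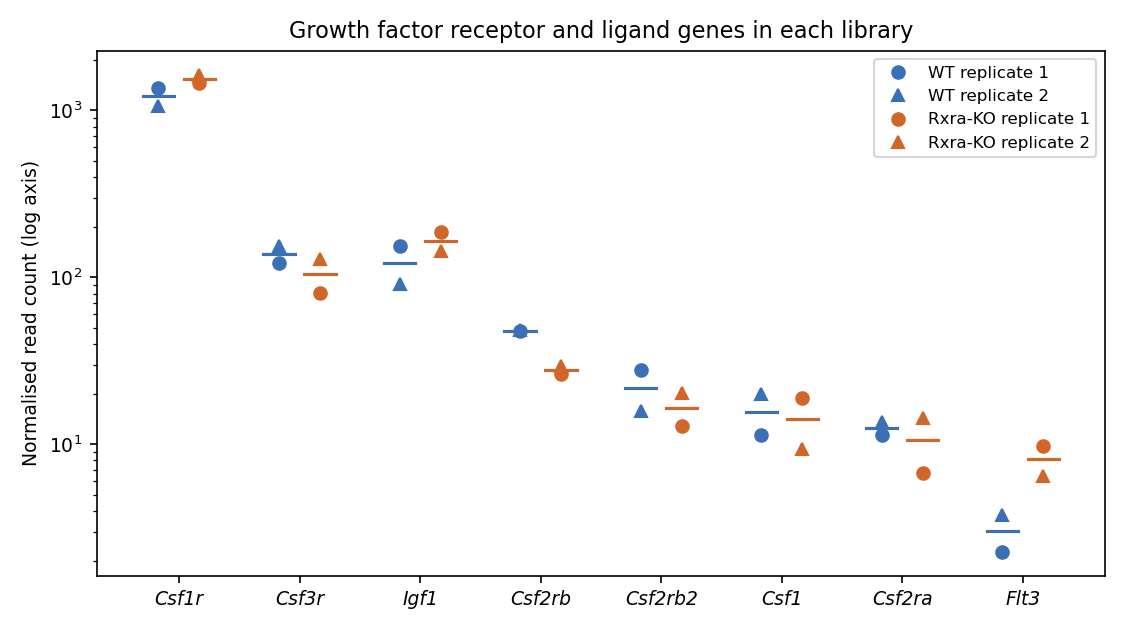
Normalised read count (log axis) of the 8 genes in each of the 4 libraries, with WT in blue and Rxra-KO in orange, circles for replicate 1, triangles for replicate 2 and bars for group means. *Csf1r* stands between 1061 and 1637, *Csf3r* and *Igf1* between 80.6 and 187, and *Flt3* at most at 9.79.

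The genes spanned a wide range of levels. Per kilobase of the longest coding transcript, *Csf1r* was the most abundant, with 258 ± 45.4 in WT and 329 ± 27.6 (SD, n = 2) in Rxra-KO. *Csf3r* followed with 39.7 ± 6.64 per kilobase in WT, against 23.1 and 36.9 in the separate Rxra-KO libraries, and *Igf1* with 17.4 ± 6.22 in WT and 23.5 ± 4.31 in Rxra-KO. *Csf1r* exceeded every other gene of the set in every library, whereas *Csf3r* and *Igf1* overlapped in Rxra-KO and not in WT. The beta chain gene *Csf2rb* had 9.79 ± 0.0839 per kilobase in WT and 5.68 ± 0.426 in Rxra-KO, and the alpha chain gene *Csf2ra* had 6.74 ± 0.843 and 5.73 ± 2.92. *Csf2rb2* had 4.61 ± 1.83 and 3.50 ± 1.13 per kilobase, *Csf1* had 3.76 ± 1.48 and 3.38 ± 1.59, and *Flt3* had 0.830 ± 0.295 and 2.22 ± 0.644. In this order, which follows the longest transcripts and the WT means, *Igf1* exceeded *Csf2rb* in every library, and the neighbours from *Csf2rb* down to *Flt3* overlapped in Rxra-KO. In WT only *Csf2rb2* and *Csf1* did. The place of *Igf1* depends on the transcript: with its shortest coding transcript of 651 bases in place of the longest of 7052, its mean level would be 188 per kilobase in WT and 255 in Rxra-KO, between *Csf1r* and *Csf3r*. *Csf1* likewise would have 19.1 in WT and 17.2 in Rxra-KO with its shortest coding transcript of 821 bases, and *Csf2rb* 23.0 and 13.4 with its shortest of 2083 bases, which in WT is above the 17.4 of *Igf1* on its longest.

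*Csf1r* was abundant in all 4 libraries and its small difference was not called. It had 1363 and 1061 normalised read counts in WT and 1454 and 1637 in Rxra-KO, from 900 to 1648 reads per library. Both Rxra-KO libraries lay above both WT libraries, and the nearest pair, 1363 and 1454, lay close together. The log2 fold change was 0.36 ± 0.21 (SE), a ratio of 1.28 with a 95% interval from 0.956 to 1.72 (limma adjusted p = 0.620). A change of 0.71 on the log2 scale would have been called for this gene. A rise or fall of 2-fold lies outside this interval, which rests mostly on spread shared across genes. Without the mean-variance trend, the unadjusted limma p of the same estimate was 0.413, against 0.0963 with it. The interval without the trend is not given here. With single libraries left out, the estimate ranged from 0.18 (WT replicate 2 removed) to 0.54 (WT replicate 1 removed). *Csf1r* had more reads than any other gene of the set in every library.

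**Figure D2:**
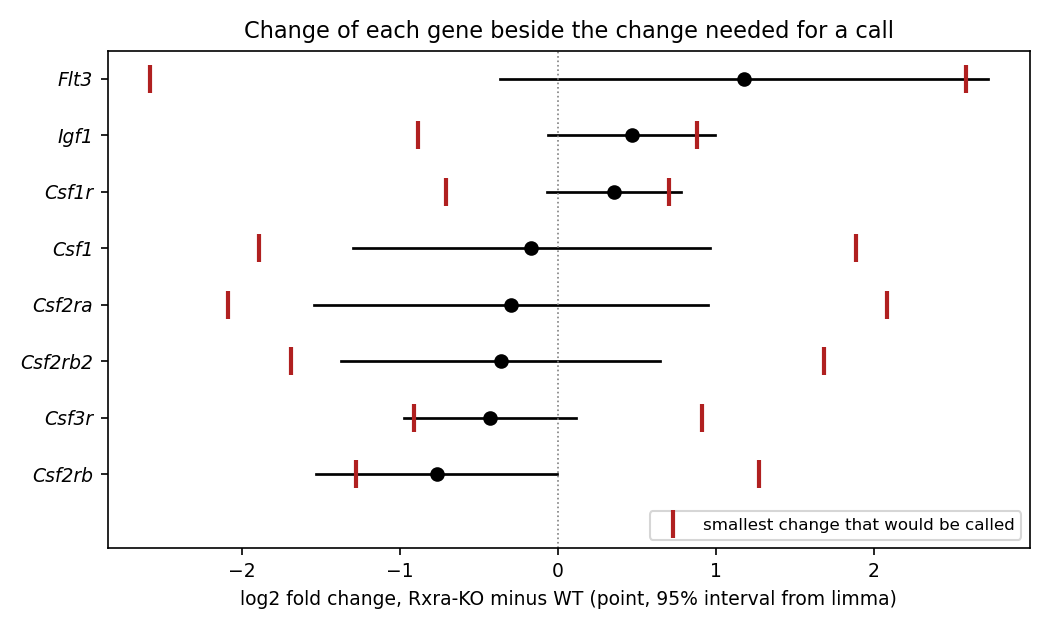
Log2 fold change of each gene (Rxra-KO minus WT, points), its 95% interval from limma (lines) and the smallest change in either direction that would have been called (red marks). No point reaches its red mark, and the marks range from 0.71 for *Csf1r* to 2.58 for *Flt3*.

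The ligands of CSF1R had few reads in these cells. *Csf1* had 11.4 and 20.1 normalised read counts in WT and 18.8 and 9.44 in Rxra-KO. The groups overlapped (log2 fold change −0.17 ± 0.57 SE, limma adjusted p = 0.981). The estimate turned to 0.22 without WT replicate 2 and to 0.30 without Rxra-KO replicate 2. *Il34*, the other ligand of the receptor, had no read in WT (0 and 0) and 1 and 3 reads in Rxra-KO, at or under the floor in both groups. With so few reads, a difference in either ligand gene was not detectable at this depth unless it was large: *Csf1* would have needed a log2 fold change of 1.89.

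Among the genes of the GM-CSF receptor, the alpha chain gene *Csf2ra* had 11.4 and 13.6 normalised read counts in WT and 6.78 and 14.4 in Rxra-KO. The Rxra-KO libraries lay on either side of the WT libraries (log2 fold change −0.29 ± 0.63 SE, limma adjusted p = 0.958), and without Rxra-KO replicate 1 the estimate was 0.20. *Csf2*, which encodes GM-CSF, had 1 and 0 reads in WT, against 6 and 3 reads in Rxra-KO (limma adjusted p = 0.475).

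The beta chain is encoded in the mouse by *Csf2rb*, whose product serves GM-CSF, IL-3 and IL-5, and by the near-identical *Csf2rb2*, whose product serves IL-3. The sequences are shown because they set how far reads can be assigned to one gene or the other. The coding sequences, from the GENCODE M21 transcripts of GRCm38, are 2688 and 2634 bases long and matched at 2503 of 2628 aligned bases, or 95.2%, with 66 gap positions. The 90 bases in which they differ most hold 16 differences, shown in capitals, and run from coding base 308 to 397 of *Csf2rb* and from 311 to 400 of *Csf2rb2*, 5′ to 3′ on the coding strand.
Csf2rb: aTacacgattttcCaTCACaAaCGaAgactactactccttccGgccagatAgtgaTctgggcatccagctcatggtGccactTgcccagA
Csf2rb2: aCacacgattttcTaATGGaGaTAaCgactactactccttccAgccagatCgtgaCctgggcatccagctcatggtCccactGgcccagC
The longest stretch with no difference covers 242 bases from coding base 2083 of both genes, and its first 150 bases are
Csf2rb and Csf2rb2: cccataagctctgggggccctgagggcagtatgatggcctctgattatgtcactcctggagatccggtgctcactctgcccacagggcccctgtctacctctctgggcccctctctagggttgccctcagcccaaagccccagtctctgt

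A read from the first stretch can be given to its gene, whereas a read from the second fits both. Over the longest coding transcripts, 29.3% of all 31-base words of *Csf2rb* and 30.9% of those of *Csf2rb2* occurred in the transcripts of another gene, most of them in each other (28.0% and 29.1%). The values of both genes are therefore uncertain to the extent that shared reads were divided between them or left out, and how they were treated was not tested. For comparison, *Csf1r*, *Flt3* and *Igf1* shared 0%, 0% and 0.256% of such words with other genes, and *Csf3r* shared 24.4%, of which most (21.1% of its words) were shared with the annotated gene AC105061.2.

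*Csf2rb* had 47.7 and 48.3 normalised read counts in WT and 26.3 and 29.3 in Rxra-KO, from 31 and 44 reads and 17 and 29 reads. Both Rxra-KO libraries lay below both WT libraries. At these read numbers counting error alone is larger than the spread within either group, so that spread does not show how precise the values are. The log2 fold change was −0.77 ± 0.39 (SE), a ratio of 0.588 with a 95% interval from 0.347 to 0.997. The unadjusted limma p was 0.0486 and the adjusted p 0.490, so the difference was not called, and a log2 fold change of 1.27 in size would have been needed. The estimate stayed between −0.84 and −0.69 when any one library was left out.

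*Csf2rb2* had 28.0 and 15.7 normalised read counts in WT and 12.8 and 20.4 in Rxra-KO. The groups overlapped (log2 fold change −0.36 ± 0.51 SE, limma adjusted p = 0.926). Without WT replicate 1 the estimate was 0.037. Because reads can move between the near-identical genes, their reads were also summed, which gave 74.9 and 63.5 in WT and 38.4 and 49.2 in Rxra-KO. The summed pair was lower in both Rxra-KO libraries, with a log2 fold change of −0.65 ± 0.34 (SE), an unadjusted limma p of 0.0539 and an adjusted p of 0.507. The share of the pair's reads given to *Csf2rb* was 63.3% (Wilson 95% interval 49.3 to 75.3) and 75.9% (63.5 to 85.0) in WT and 68.0% (48.4 to 82.8) and 59.2% (45.2 to 71.8) in Rxra-KO. These intervals overlapped between all libraries.

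*Il5ra*, the alpha chain that pairs with the shared beta chain for IL-5, had 59 and 70 reads in WT, against 43 and 76 reads in Rxra-KO (log2 fold change −0.23 ± 0.31 SE, limma adjusted p = 0.916). Its mean of 83.3 ± 9.62 normalised read counts in WT (SD, n = 2) was above that of *Csf2rb*. *Il5* itself had between 1 and 6 reads per library.

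*Csf3r*, the G-CSF receptor gene, had 122 and 155 normalised read counts in WT and 80.6 and 129 in Rxra-KO. The higher Rxra-KO library lay between the WT libraries. The log2 fold change was −0.43 ± 0.28 (SE), a ratio of 0.744 with a 95% interval from 0.510 to 1.08 (limma adjusted p = 0.671). The estimate was −0.09 without Rxra-KO replicate 1 and −0.76 without Rxra-KO replicate 2. Since *Csf3r* is known from neutrophils, the neutrophil markers were read beside it. Of 9 markers, 4 were in the table, 0 were called by limma and 0 had an unadjusted p under 0.05, and their summed level was 112 and 106 in WT, against 110 and 111 in Rxra-KO. Most of that sum was *Cxcr2*, a chemokine receptor gene, with 69 and 82 reads in WT, against 59 and 102 in Rxra-KO. *Mpo*, the myeloperoxidase gene, had between 2 and 5 reads per library, and *Ngp* between 1 and 7. *Retnlg* had 0 and 2 reads in WT, against 7 and 2 in Rxra-KO, and was not called. The listed markers *S100a8*, *S100a9*, *Ly6g*, *Elane* and *Camp* were not in the table. *Csf3r* itself had between 53 and 142 reads, and the part of neutrophils in them was not tested.

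*Flt3* was at the floor in WT, with 1 and 3 reads, and had 6 reads in each Rxra-KO library. In normalised read counts these were 2.27 and 3.80 in WT and 9.79 and 6.46 in Rxra-KO. The groups did not overlap. The ratio of summed reads, scaled by depth, was 2.84 with an exact counting interval from 0.861 to 12.1, and the limma adjusted p was 0.688. A log2 fold change of 2.58 would have been needed for a call. *Flt3l*, the ligand gene, had 1 and 5 reads in WT, against 0 and 4 in Rxra-KO. Because FLT3 marks dendritic cells, the 8 dendritic cell markers, which include *Flt3*, were read beside it. Their summed level was 68.1 and 71.6 in WT and 111 and 138 in Rxra-KO. Of the 8, 1 was called, the lectin gene *Cd209a*, which rose from 14 and 13 reads to 43 and 80 reads (log2 fold change 1.95 ± 0.39 SE, limma adjusted p = 0.000128). This call was lost without Rxra-KO replicate 2 (1.81, adjusted p = 0.0509). Without *Cd209a*, the other 7 markers summed to 46.2 and 57.0 in WT, against 45.9 and 58.1 in Rxra-KO, and these sums overlapped. The defining markers *Xcr1*, *Clec9a* and *Zbtb46* had between 1 and 13 reads per library. The part of dendritic cells in the *Flt3* reads was not tested.

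*Igf1* had 154 and 91.7 normalised read counts in WT and 187 and 145 in Rxra-KO. The higher WT library lay between the Rxra-KO libraries, so the groups overlapped. The log2 fold change was 0.47 ± 0.27 (SE), a ratio of 1.38 with a 95% interval from 0.960 to 1.99 (limma adjusted p = 0.591). The estimate was 0.84 without WT replicate 1 (adjusted p = 0.274) and 0.10 without WT replicate 2, so the lower of the WT libraries set most of it. *Igf1r*, the receptor gene, had 40 and 51 reads in WT, against 59 and 79 in Rxra-KO (log2 fold change 0.52 ± 0.31 SE, adjusted p = 0.629). *Igf2r*, which binds IGF2 and carries it to lysosomes, had 36 and 51 reads in WT, against 23 and 39 in Rxra-KO (−0.56 ± 0.36 SE, adjusted p = 0.664). Neither was called, and *Irs2*, an adaptor below the insulin and IGF1 receptors, had 78 and 168 reads in WT, against 71 and 143 in Rxra-KO.

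**Figure D3:**
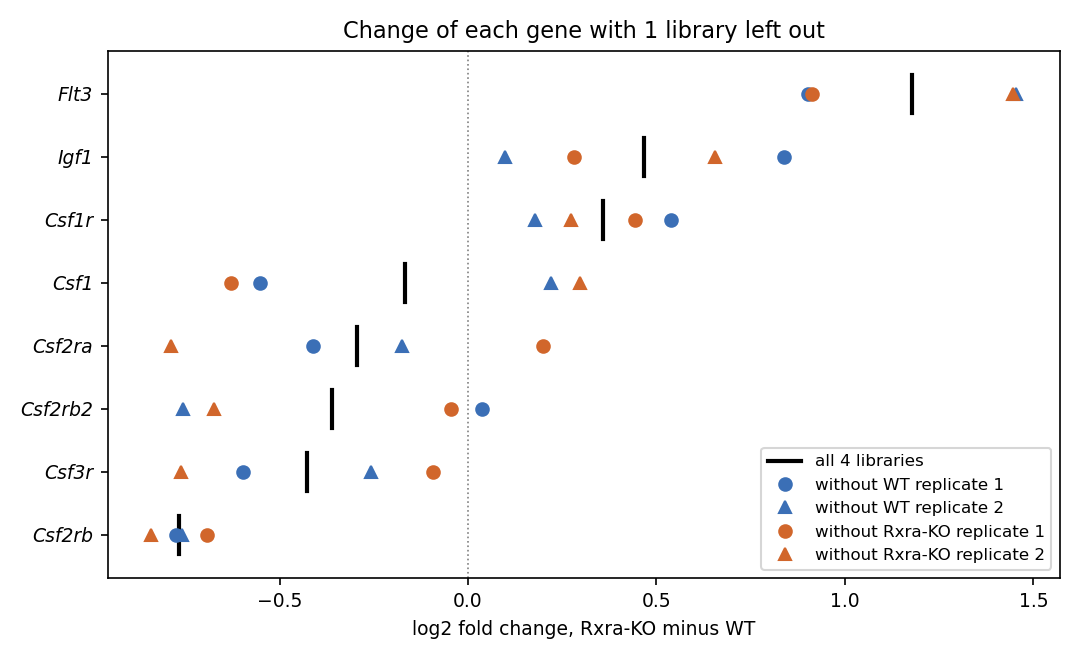
Log2 fold change (Rxra-KO minus WT) of each gene with all 4 libraries (black bars) and with each library left out in turn (blue for a WT library left out, orange for an Rxra-KO library, circles for replicate 1 and triangles for replicate 2). *Csf2rb* stays between −0.84 and −0.69, whereas *Csf1*, *Csf2ra* and *Csf2rb2* have values on both sides of 0.

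The genes around these receptors were taken from lists of ligands, receptors, signalling proteins and transcription factors. Beside the 8 genes, 83 of 90 listed genes were in the table, 38 with a higher and 45 with a lower estimate in Rxra-KO and a median log2 fold change of −0.01. Of the 83, 3 were called higher, or 3.61% against 1.32% of all genes, and 0 were called lower against 0.969%. Calls depend on depth, with 13.7% called in either direction among genes with a mean of at least 100 reads, and the shares here were not matched for depth. Groups did not overlap for 35 of them, or 42.2% against 38.1%. At an unadjusted limma p under 0.05 there were 15, or 18.1%, against 10.1% of all genes. The called genes were *Akt2* of the CSF1R signalling list, *Igfbp4* of the IGF list and *Egr2* of the list of transcription factors known at the *Csf1r* gene.

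*Igfbp4*, which encodes a secreted protein that binds IGFs, rose from 44 and 22 reads in WT to 101 and 139 reads in Rxra-KO. In normalised read counts the means were 45.9 ± 30.4 and 146 ± 10.1 (SD, n = 2), a log2 fold change of 1.81 ± 0.31 (SE, limma adjusted p = 4.15e-06). *Igfbp4* was also called by DESeq2 (adjusted p = 0.0154), but not by limma without a mean-variance trend (adjusted p = 0.520). Every Rxra-KO library exceeded both WT libraries, but the call was lost without WT replicate 2 (log2 fold change 1.10, adjusted p = 0.0968). In the list of the IGF system, 14 of 16 genes were in the table, 5 with higher and 9 with lower estimates and a median of −0.24. Other binding protein genes had few reads: *Igfbp5* had between 3 and 15 per library, and *Igfbp7* had 6 and 4 in WT, against 1 and 0 in Rxra-KO (limma adjusted p = 0.335).

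*Egr2*, a zinc finger factor of the immediate early class, rose from 25 and 10 reads in WT to 165 and 58 in Rxra-KO. The means were 25.0 ± 19.2 and 154 ± 135 normalised read counts (SD, n = 2), and the log2 fold change was 2.46 ± 0.37 (SE, limma adjusted p = 4.74e-08). This SE and p rest mostly on spread shared across genes, not on the wide spread of *Egr2* itself. *Egr2* was not called by DESeq2 (adjusted p = 0.508) or by limma without a mean-variance trend (adjusted p = 0.543). The call was lost without Rxra-KO replicate 1, where the log2 fold change was 1.42 and the adjusted p 0.281. All 13 genes of this list were in the table, with 7 higher and 6 lower estimates and a median of 0.37. *Spi1*, which encodes the lineage factor PU.1 that binds the *Csf1r* promoter, had 20 and 41 reads in WT, against 21 and 38 in Rxra-KO (log2 fold change −0.09 ± 0.39 SE), and *Irf8*, a factor of the myeloid lineage, had 141 and 163 in WT, against 104 and 228 in Rxra-KO (−0.04 ± 0.25 SE). *Ets2* had 28 and 51 reads in WT, against 76 and 78 in Rxra-KO (0.93 ± 0.32 SE) and was not called (limma adjusted p = 0.115).

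*Akt2*, a kinase downstream of phosphoinositide 3-kinase, rose from 42 and 83 reads in WT to 98 and 182 in Rxra-KO. The means were 77.5 ± 18.6 and 165 ± 23.3 normalised read counts (SD, n = 2), a log2 fold change of 1.09 ± 0.28 (SE, limma adjusted p = 0.00772). *Akt2* was not called by DESeq2 (adjusted p = 0.115) or by limma without a mean-variance trend (adjusted p = 0.555). The call was lost without WT replicate 1 (0.85, adjusted p = 0.261) and without Rxra-KO replicate 2 (0.95, adjusted p = 0.254). In the CSF1R signalling list, 31 of 32 genes were in the table, with 15 higher and 16 lower estimates and a median of −0.01. Its best-measured genes, the Src family kinase gene *Lyn* and the phosphatase gene *Ptpn6*, had log2 fold changes of −0.25 ± 0.22 and −0.18 ± 0.22 (SE) and were not called. *Tyrobp*, which encodes the adaptor DAP12, had 41 and 42 reads in WT, against 14 and 33 in Rxra-KO (−0.97 ± 0.38 SE), and was not called (limma adjusted p = 0.249).

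In the list of JAK-STAT genes below the beta chain and G-CSF receptors, 14 of 15 genes were in the table, with 6 higher and 8 lower estimates, a median of −0.01 and 0 calls (1 at an unadjusted limma p under 0.05, *Jak1*). *Jak2*, the kinase bound to the beta chain, had 25 and 44 reads in WT, against 24 and 50 in Rxra-KO (log2 fold change −0.01 ± 0.37 SE). *Stat5a* and *Stat5b* had log2 fold changes of 0.06 ± 0.49 and −0.02 ± 0.33 (SE). *Jak1* had 219 and 250 reads in WT, against 305 and 476 in Rxra-KO (0.63 ± 0.23 SE, limma adjusted p = 0.164). Of the 5 genes of receptor shedding, none was called by limma and 1 had an unadjusted p under 0.05. This was *Adam10*, a surface protease, with 310 and 503 reads in WT, against 476 and 856 in Rxra-KO (0.62 ± 0.22 SE, adjusted p = 0.142). It was called with voom, and the study lists it as upregulated in these same libraries. *Adam17*, the protease known to release the ectodomain of CSF1R, had a log2 fold change of 0.09 ± 0.23 (SE). Of the ligand list, 6 of 8 genes were in the table, and of the receptor list 8 of 9, with medians of 0.35 and −0.33. Neither list held a call by limma, edgeR or DESeq2, and each held 1 gene with an unadjusted limma p under 0.05, *Csf2* and *Csf2rb*.

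**Figure D4:**
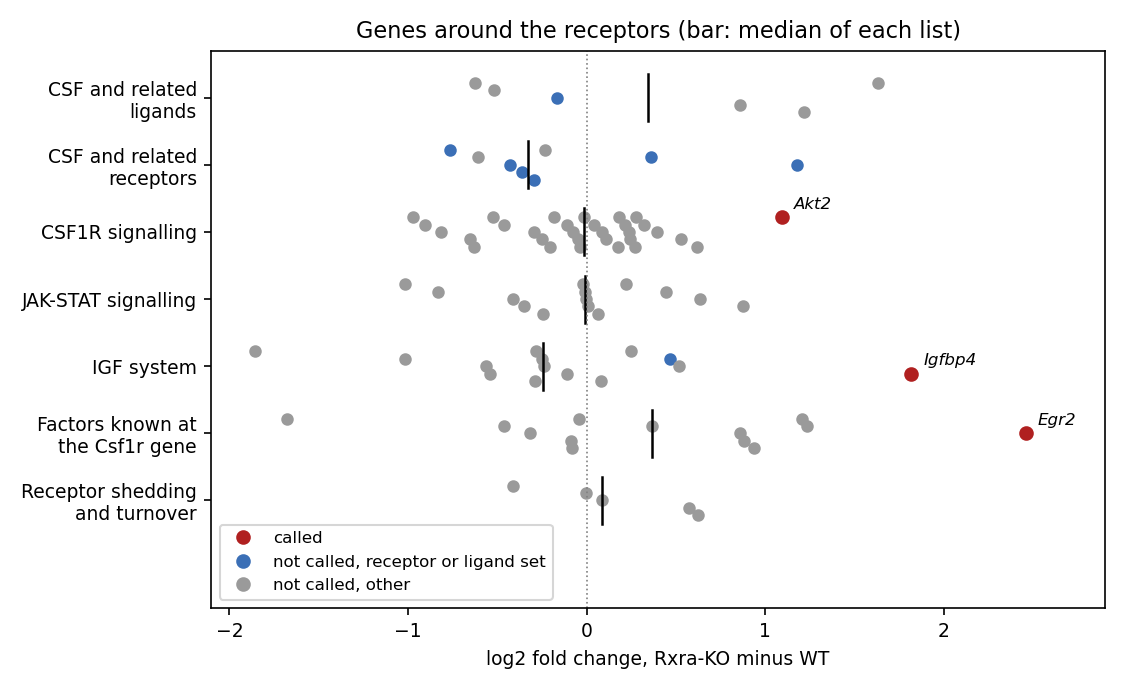
Log2 fold change (Rxra-KO minus WT) of every measured gene of the 7 lists, 1 row a list, with called genes in red, the 8 receptor and ligand genes in blue, other genes in grey and the median of each list as a black bar. The called genes *Akt2*, *Igfbp4* and *Egr2* stand at 1.09, 1.81 and 2.46, apart from lists whose medians lie between −0.33 and 0.37.

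The cells carried macrophage markers in both groups, and the levels of several markers moved with the comparison. All 6 macrophage markers were in the table, and 3 were called lower in Rxra-KO: *Adgre1* (log2 fold change −0.89), *Itgam* (−1.24) and *Lyz2* (−1.03), the last of which is the gene that carries Cre. *Fcgr1* also had a lower estimate (−1.07) and was not called (limma adjusted p = 0.224), and both Rxra-KO libraries lay below both WT libraries for it. The summed level of the list was 18985 and 17121 in WT, against 8674 and 9035 in Rxra-KO, and without *Lyz2*, which made up most of it, 4722 and 5530, against 2288 and 2805. *Cd68* and *Mertk* had higher estimates (0.22 and 0.19) and were not called, with limma adjusted p-values of 0.869 and 0.932, and both Rxra-KO libraries lay above both WT libraries for each. Likewise, both Rxra-KO libraries had higher values of *Csf1r* than either WT library. All 7 LPM markers had lower estimates and 5 were called (*Gata6*, *Icam2*, *Ltbp1*, *Prg4* and *Selp*), with log2 fold changes from −2.32 for *Gata6* to −0.88 for *Prg4* and summed levels of 42546 and 43136 in WT, against 22498 and 23922 in Rxra-KO. Of 8 markers of small peritoneal macrophages and monocytes, 6 rose (*Ccr2*, *Clec4b1*, *Fcrls*, *Irf4*, *Mrc1* and *Retnla*), with log2 fold changes from 1.54 for *Irf4* to 7.17 for *Fcrls*, and the summed level was 388 and 124 in WT, against 4306 and 5740 in Rxra-KO. The other 2, *Ly6c2* and *Cx3cr1*, had lower estimates (−0.78 and −0.30), had at most 13 reads per library and were not called. Calls were lost with a single library left out for *Adgre1* (without WT replicate 1, adjusted p = 0.356, or Rxra-KO replicate 2, 0.320), *Lyz2* (without WT replicate 1, 0.272, or WT replicate 2, 0.0583), *Prg4* (without WT replicate 1, 0.381, or WT replicate 2, 0.491), *Gata6* (without Rxra-KO replicate 1, 0.193) and *Irf4* (without Rxra-KO replicate 1, 0.235, or Rxra-KO replicate 2, 0.122), all by limma. Many of these markers were named in the study on the basis of the same libraries and are no independent evidence. The part of such a shift in the values of *Csf1r*, *Csf2rb*, *Flt3* and *Igf1* was not tested.

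The markers of the other cells that were in the table were low, and none was called by limma. There was 1 gene at an unadjusted p under 0.05 in each of the eosinophil, B cell, T cell and mesothelial lists and 0 in the mast cell list. In the table were 6 of 7 mast cell, 5 of 7 eosinophil, 5 of 7 B cell, 5 of 7 T cell and 7 of 10 mesothelial markers. Markers not in it, among them *Siglecf*, *Ighm*, *Pax5*, *Trac* and *Dcn*, are missing from the sums. Mast cell markers, which include *Kit*, summed to between 30.8 and 42.4 in the 4 libraries, and eosinophil markers, which include *Il5ra*, to between 79.0 and 101. Without *Il5ra*, whose reads made up most of it, the eosinophil list held only genes with at most 7 reads per library. B cell markers summed to between 17.4 and 26.3 and T cell markers to between 74.0 and 113. Mesothelial cell and fibroblast markers summed to between 83.9 and 125.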

How the data were processed

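RNA of double-sorted LPMs was made into SMART-Seq v4 low-input libraries without molecular identifiers. Per the labels and methods, the authors quantified transcripts with Kallisto 0.43.0, summarised them to genes with tximport and applied TMM scaling. GRCh38, a human build, is the one named although the libraries are from mice, so no coordinates are printed. The authors deposited a normalised read signal, in 1 column per library, equal to (reads + 0.5) times a fixed step, and 100% gave whole reads (tolerance 0.01 reads). How whole reads arose from transcript estimates was not settled. Titles number the replicates 1 and 2 and were followed. RNA-seq samples that clustered away from their group had been excluded by the authors.

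Each of the 18364 genes was fitted on log2(value + 1) with limma 3.58.1 in R 4.3.3 (mean-variance trend, all 4 libraries, no covariate). Benjamini-Hochberg adjustment was over all genes, and tests were two-sided. A filter that kept genes with values of 1 or more in 2 or more libraries removed 0 genes. The design file allowed for counts, and limma was used because the values are normalised. Alternatives were edgeR 4.0.16, DESeq2 1.42.0 and voom on the recovered reads, other pseudocounts, filters and scalings, single libraries left out and a replicate block. For 1 gene, the smallest p of an exact permutation test is 0.333 here, so adjusted p-values rest on spread shared across genes. The scripts were tested on simulated data.

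The genes and lists were chosen with earlier results of these data known. The rule for naming covered the 8 genes, called genes of each list, ligands and receptors, and the leading markers. Other listed genes, such as *Jak2*, *Stat5a*, *Stat5b*, *Spi1*, *Lyn*, *Ptpn6*, *Ets2*, *Tyrobp*, *Adam10*, *Adam17*, *Irf8*, *Irs2*, *Igf1r* and the binding protein genes, were chosen after their values were seen. The rule for genes of like pattern covered called members and named none. Sequences and lengths came from GENCODE M21 (GRCm38).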

Additional observations from a re-analysis of the deposited data

How the results depend on the processing

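None of the 8 genes was called under any of 17 alternatives, and the lowest adjusted p was 0.274 (*Igf1*, without WT replicate 1). In 6 of the alternatives the fold changes are the same by construction. Of these, the stricter adjusted p cut of 0.01 could not have added a call. Omitting the filter repeated the main fit, because the filter removed 0 genes. Of the 88 values of single genes under the other 11, 84 kept their direction and 4 did not, namely *Csf2ra* at 0.20 without Rxra-KO replicate 1, *Csf2rb2* at 0.037 without WT replicate 1, and *Csf1* at 0.22 without WT replicate 2 and 0.30 without Rxra-KO replicate 2. With single libraries left out, log2 fold changes ranged from −0.79 to 0.20 for *Csf2ra*, from −0.76 to 0.037 for *Csf2rb2* and from −0.63 to 0.30 for *Csf1*. DESeq2 gave no adjusted p for *Csf2ra* and *Flt3*, and a minimum mean value of 10 removed *Flt3*. The 3 pathway calls became 0 in limma without a mean-variance trend (8 at an unadjusted p under 0.05), where no gene of the table was called (1579 at an unadjusted p under 0.05), and 1, *Igfbp4*, with DESeq2. They were 2 without each library in turn, 3 with edgeR and 4 with voom, which added *Adam10*. The 421 calls over all genes became 235 with DESeq2, 236 without WT replicate 2 and 244 without Rxra-KO replicate 1. The cause was not tested.

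Replicate numbers are shared by the groups, but nothing in the labels says that a number marks a litter or day. The deviations of same-numbered libraries from their group means correlated at 0.175 over 1405 genes. With only 2 libraries a group this is a single contrast, which cannot decide whether the numbers mark pairs. In the absence of a label, they were not taken as pairs. With a replicate block, 0 of the 8 genes and 5 pathway genes were called, *Jak1* and *Adam10* being added, and 540 genes in all.

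Depth limits the rest: *Csf1*, *Csf2ra* and *Flt3* had at most 18 reads per library. The 95% limma intervals of the ratio include a 2-fold fall for *Csf1* (0.407 to 1.95) and *Csf2ra* (0.344 to 1.94). That of *Flt3* (0.776 to 6.61) includes a 2-fold rise. The intervals of *Csf2rb* (0.347 to 0.997) and *Csf2rb2* (0.387 to 1.57) also include a 2-fold fall.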
